A study of Mus musculus with 9 samples.

Results

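The adult globin genes and enzymes of heme metabolism were examined in LSK cells, marrow cells of the mouse sorted for Sca1 and cKit after exclusion of lineage-marked cells (Mac1, Gr1, B220, CD3e and Ter119), among which are the stem and early progenitor cells of blood. The 9 genes were taken by symbol from the 37882 genes of the RPKM table: the beta chain genes Hbb-bt and Hbb-bs, the alpha chain genes Hba-a1 and Hba-a2, the heme synthesis genes Alas2, Alas1, Urod and Fech, and Blvrb, a reductase that acts on products of heme breakdown. These symbols were picked with earlier results of the same libraries in view, the high Hbb-bt level in K36M mice among them. The group differences of the 9 genes are therefore descriptions, given with no p-value, and a gene is said to be called or not called only to place it beside the rest of the table.

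All 9 mice carried rtTA, the doxycycline-dependent activator, at Rosa26, were on a mixed B6/129 background, were 6 to 8 weeks old, and drank water with doxycycline at 2 mg/ml and sucrose at 10 mg/ml. The rtTA control group carried nothing further. K9M mice also carried H3K9M at Col1a1, and K36M mice carried H3K36M at Col1a1, both forms of histone H3 with a lysine changed to methionine. Each group had 3 mice and 1 library per mouse. No group carried an unmutated H3 transgene, so the mutation and the presence of an H3 transgene cannot be told apart. The length of doxycycline treatment is not given in the sources used here.

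Hemoglobin is a tetramer of alpha and beta globin chains, each holding a heme group. Heme is made in steps that start and end in mitochondria, from glycine and succinyl-CoA to the insertion of iron into protoporphyrin. Maturing red cell precursors make both at very high levels, while stem and progenitor cells make heme for enzymes of respiration and detoxification.

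Library depth, read from the smallest steps in the RPKM values, was about 15860000 to 50320000 reads. Kit, Ly6a, Cd34 and 5 further LSK markers summed to 641 to 887 RPKM in rtTA, 692 to 824 in K9M and 596 to 614 in K36M. By limma 0 of these 8 were called in K9M against rtTA, K36M against rtTA or K36M against K9M. An unadjusted p under 0.05 was met by 1, 6 and 5 of 8, and differences were above 0 for 5, 2 and 2 of 8. Over all tested genes, 0.116%, 1.5% and 2.52% were called in these comparisons. For them 7.11%, 19.1% and 18.8% had an unadjusted p under 0.05 by limma, and 51.3%, 52.3% and 51.1% were above 0. The same shares stand beside every list below. Cd3e, a T cell marker of the lineage panel, was at most 0.17 RPKM, but 6 T lineage markers summed to 9.05 to 12.1 RPKM in rtTA, 12.4 to 17.6 in K9M and 9.37 to 13.7 in K36M, mostly from Lck. The 8 B lineage markers summed to 37.6 to 51.1 RPKM in rtTA, 19.9 to 24.9 in K9M and 31.2 to 36.9 in K36M. By limma 0 of the 6 tested B lineage markers were called in any comparison, with 5, 2 and 4 at an unadjusted p under 0.05 in K9M against rtTA, K36M against rtTA and K36M against K9M. Granulocyte markers were not absent: 10 of them summed to 7062 RPKM in rtTA replicate 3 and to between 859 and 2450 in the other 8 libraries. Marrow macrophage markers summed to 15.3 to 35.6 RPKM in rtTA, 14.2 to 19.8 in K9M and 11.5 to 18.8 in K36M. By limma 1 of the 8 tested ones was called, lower in K36M against rtTA, and 0 in the other comparisons. An unadjusted p under 0.05 was met by 0, 3 and 2 of 8, and differences were above 0 for 2, 2 and 3 of 8, in the same order. In bulk RNA, fewer cells of a type and less RNA per cell cannot be told apart.

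The globin copies are shown first, because their levels depend on how reads were placed. In GENCODE M21 (mm10), Hbb-bt (ENSMUSG00000073940, chromosome 7, 103812524 to 103813996, minus strand) and Hbb-bs (ENSMUSG00000052305, chromosome 7, 103826534 to 103828096, minus strand) have coding sequences of 444 bases that differ at 1 base, written T417C with the base of Hbb-bt first and positions counted from the start codon. The coding 3′ ends below, positions 388 to 444, hold that base in capitals.
Hbb-bt: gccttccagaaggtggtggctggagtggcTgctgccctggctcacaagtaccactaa
Hbb-bs: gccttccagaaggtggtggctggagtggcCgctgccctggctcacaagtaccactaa
The alpha genes Hba-a1 (ENSMUSG00000069919, chromosome 11, 32283511 to 32284465, plus strand) and Hba-a2 (ENSMUSG00000069917, chromosome 11, 32296489 to 32297298, plus strand) are as close, with 1 difference in 429 coding bases, C381T with the base of Hba-a1 first. Positions 352 to 411 hold it in capitals.
Hba-a1: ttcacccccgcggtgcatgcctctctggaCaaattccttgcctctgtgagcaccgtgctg
Hba-a2: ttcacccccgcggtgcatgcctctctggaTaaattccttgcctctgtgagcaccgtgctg
The longest stretch shared without a difference was 430 bases between the Hbb-bt and Hbb-bs transcripts and 415 bases between the Hba-a1 and Hba-a2 transcripts. A read inside such a stretch fits both copies equally well. No source used here says how the authors counted such reads. The level of each copy is thus uncertain, and the sum of each pair is given beside it.

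The 250 bases before each RefSeq start site are shown, on GRCm38.p6. The GENCODE M21 gene starts given above lie further upstream, so each printed stretch partly overlaps its M21 gene. The stretches are the reference sequence, the same for every group, and not that of these mixed-background mice. Capitals mark matches on either strand to 4 motifs: the CACCC box, the CCAAT box, a TATA box (searched as ATATAA) and a GATA site (searched as GATAAG). Hbb-bt is at chr7:103813924-103814173, Hbb-bs at chr7:103827929-103828178 and Hba-a1 at chr11:32283422-32283671.
Hbb-bt upstream: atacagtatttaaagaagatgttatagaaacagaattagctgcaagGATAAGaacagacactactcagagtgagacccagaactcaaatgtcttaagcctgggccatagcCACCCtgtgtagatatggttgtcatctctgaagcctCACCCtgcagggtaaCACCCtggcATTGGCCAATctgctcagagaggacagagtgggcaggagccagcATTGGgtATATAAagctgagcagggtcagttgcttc
Hbb-bs upstream: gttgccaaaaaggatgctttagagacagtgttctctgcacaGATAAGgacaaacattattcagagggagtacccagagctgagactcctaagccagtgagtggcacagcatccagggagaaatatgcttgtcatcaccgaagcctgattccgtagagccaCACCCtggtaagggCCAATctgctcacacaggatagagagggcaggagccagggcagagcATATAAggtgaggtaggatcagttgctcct
Hba-a1 upstream: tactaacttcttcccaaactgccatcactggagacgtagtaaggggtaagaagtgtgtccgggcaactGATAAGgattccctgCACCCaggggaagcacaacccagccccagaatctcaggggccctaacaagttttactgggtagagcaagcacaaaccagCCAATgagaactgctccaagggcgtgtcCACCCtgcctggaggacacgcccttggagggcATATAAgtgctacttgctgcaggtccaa
All 4 motifs were found before the RefSeq start of each of the 4 globin genes, against 46 of 32851 promoters of this length (0.14%). The motifs were picked by hand for globin promoters, so this contrast is a description and not a test. Matches did not overlap each other. Alone, CACCC was found in 52.0% of all promoters, CCAAT in 33.9%, ATATAA in 9.10% and GATAAG in 6.55%. The upstream sequences of Hbb-bt and Hbb-bs aligned with 70.9% identity, and Hbb-bt held 3 matches to CACCC and 3 to CCAAT where Hbb-bs held 1 of each. The part of these matches in the beta gene levels was not tested. The upstream sequences of Hba-a1 and Hba-a2 shared an unbroken stretch of 247 bases, so only the first is printed. None of the enzyme genes with an entry held more than 1 of the 4 motifs. Of the 9 genes, 8 had an entry, and Fech was not matched.

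Hbb-bt stood apart from the other 3 globin genes. Its level was 9.80, 12.4 and 14.4 RPKM in rtTA replicates 1 to 3, 40.1, 23.7 and 5.66 RPKM in K9M replicates 1 to 3, and 206, 181 and 101 RPKM in K36M replicates 1 to 3. Every K36M library lay above every other library, and the K9M libraries spread from below the lowest control to above the highest. The K36M mean of 163 ± 54.7 RPKM (SD, n = 3) was 13.3-fold the control mean of 12.2 ± 2.30 and 7.03-fold the K9M mean of 23.2 ± 17.2. On the log2(RPKM + 0.5) scale the difference was 3.64 (SE 0.59, 95% interval 2.31 to 4.97) for K36M minus rtTA and 3.10 (SE 0.59, 1.77 to 4.43) for K36M minus K9M. For K9M minus rtTA it was 0.54 (SE 0.59, -0.79 to 1.87), and without K9M replicate 1 it was -0.04.

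Hbb-bs, the neighbouring beta chain gene, did not show this. Its level was 9.34, 9.24 and 19.3 RPKM in rtTA, 20.4, 24.9 and 20.9 RPKM in K9M, and 16.5, 19.98 and 16.04 RPKM in K36M. The K9M libraries were all above the controls, K36M overlapped rtTA, and rtTA replicate 3 stood at about the level of the mutants. The difference on the log2 scale was 0.86 (SE 0.25) for K9M minus rtTA and 0.53 (SE 0.25) for K36M minus rtTA. It was 1.20 for K9M minus rtTA without rtTA replicate 3, and Hbb-bs was then called.

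The share of Hbb-bt in the summed beta chain RPKM was 51.2%, 57.4% and 42.7% in rtTA. It was 66.3%, 48.8% and 21.3% in K9M, and 92.6%, 90.1% and 86.3% in K36M. The control copies were thus near parity, the K9M mice differed widely from each other, and in K36M nearly all of the beta signal was assigned to Hbb-bt. The beta sum averaged 24.8 ± 7.78 RPKM in rtTA mice, 45.2 ± 17.2 RPKM in K9M mice and 180.4 ± 55.6 RPKM in K36M mice (SD, n = 3). With each pair summed as 1 feature, the beta difference on the log2 scale was 2.83 for K36M minus rtTA and 2.01 for K36M minus K9M. Since most of the K36M sum is Hbb-bt, for which these genes were picked, this is a description too.

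**Figure D1:**
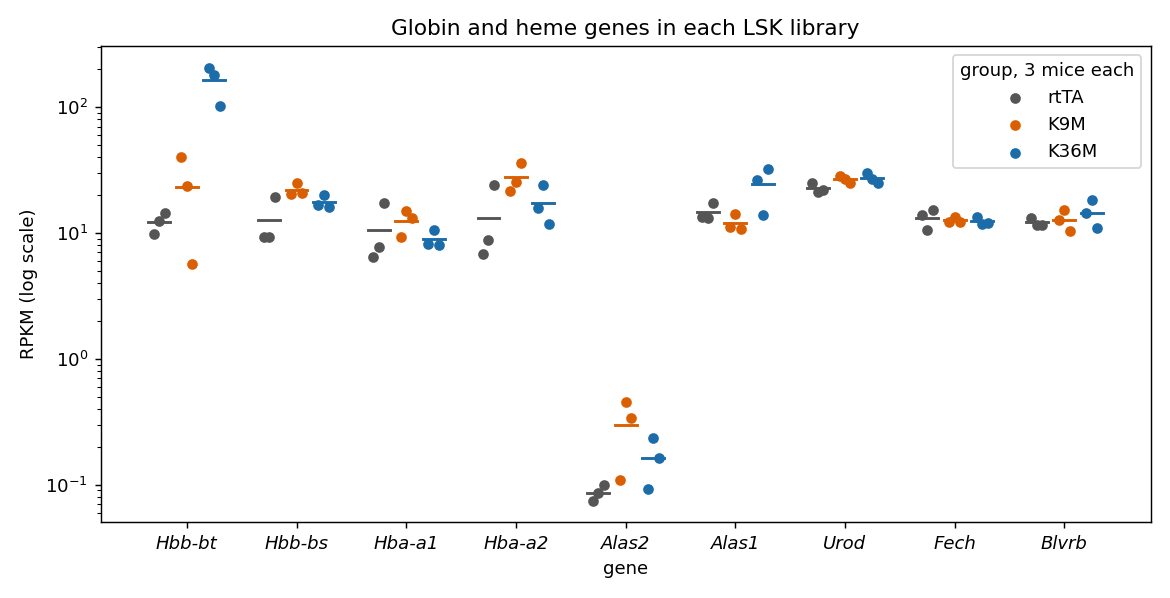
RPKM on a log axis for the 9 genes, with 1 point per library, grouped by rtTA, K9M and K36M, and a bar at each mean of 3 mice. Hbb-bt in K36M lies between 101 and 206 RPKM, above all 6 other libraries, while Alas2 is below 0.5 RPKM everywhere.

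The alpha chain genes did not follow Hbb-bt. Hba-a2 stood at 6.80, 8.72 and 24.2 RPKM in rtTA, 21.7, 25.5 and 36.3 RPKM in K9M, and 15.9, 24.04 and 11.8 RPKM in K36M. Both mutant groups overlapped the controls through rtTA replicate 3, the control library rich in granulocyte markers. The Hba-a2 difference was 1.22 (SE 0.44) for K9M minus rtTA, 0.52 (SE 0.44) for K36M minus rtTA and -0.70 (SE 0.44) for K36M minus K9M on the log2 scale. Hba-a1 stood at 6.40, 7.67 and 17.4 RPKM in rtTA, 9.24, 15.0 and 13.1 RPKM in K9M, and 8.24, 10.6 and 8.04 RPKM in K36M. Its groups overlapped in all 3 comparisons, and its K36M minus rtTA difference was -0.10 (SE 0.33), or 0.32 without rtTA replicate 3.

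Summed over both copies, alpha chain RPKM averaged 23.7 ± 15.6 in rtTA mice, 40.2 ± 9.22 in K9M mice and 26.2 ± 7.60 in K36M mice (SD, n = 3). The ratio of the beta sum to the alpha sum was 1.45, 1.32 and 0.81 in rtTA, 1.96, 1.20 and 0.54 in K9M, and 9.23, 5.82 and 5.92 in K36M. Only the K36M mice had a beta signal several times that of alpha. The ratio of Hbb-bs alone to the alpha sum was 0.579 ± 0.122 in rtTA, 0.567 ± 0.125 in K9M and 0.690 ± 0.116 in K36M (SD, n = 3), so the higher beta signal in K36M was assigned to Hbb-bt.

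**Figure D2:**
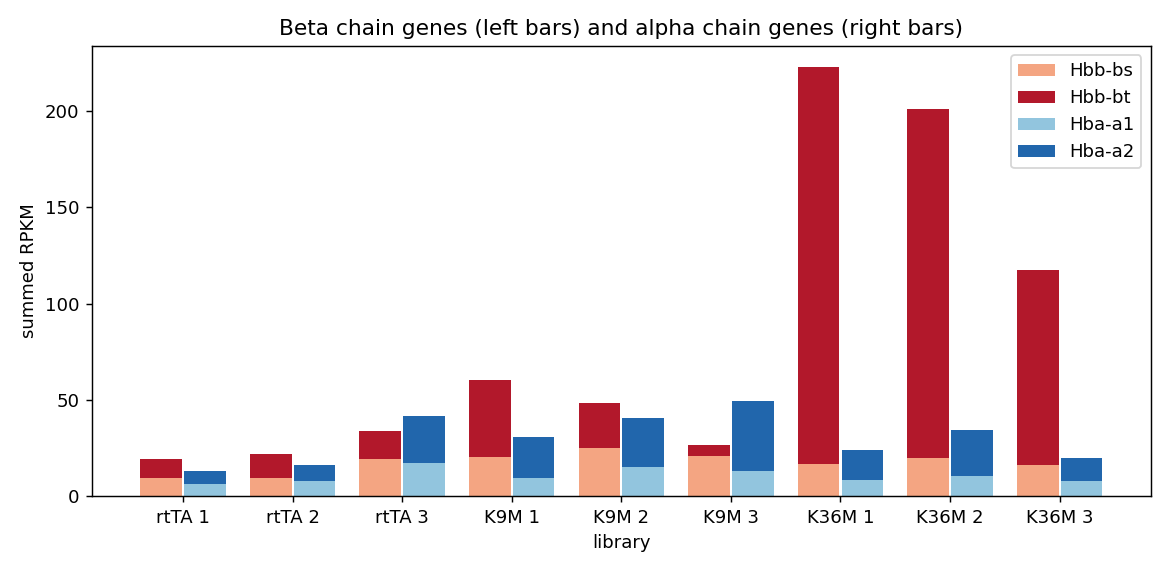
Stacked bars of RPKM from 0 in each of the 9 libraries, with Hbb-bs and Hbb-bt in the left bar and Hba-a1 and Hba-a2 in the right bar. The beta sum of the K36M libraries is 117 to 223 RPKM, almost all of it Hbb-bt, while the alpha sum stays between 13.2 and 49.3 RPKM over all 9 libraries.

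Alas2 and Alas1 encode the erythroid and the general form of the first heme synthesis enzyme. Alas2 (ENSMUSG00000025270, chromosome X, 150547375 to 150570638) was at the edge of detection, at 0.0747, 0.0855 and 0.0992 RPKM in rtTA, 0.110, 0.453 and 0.338 RPKM in K9M, and 0.0922, 0.235 and 0.164 RPKM in K36M. With the depths above, this is about 2.98 to 6.94 reads per control library and about 8.93 to 30.7 in the mutant libraries. All K9M libraries lay above all controls and K36M overlapped them. Alas2 was below the level filter of at least 1 RPKM in at least 3 libraries and was not tested.

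Alas1 (ENSMUSG00000032786, chromosome 9, 106233455 to 106248654) had a higher RNA level than Alas2 in every library. It stood at 13.3, 13.1 and 17.3 RPKM in rtTA, 11.2, 14.2 and 10.8 RPKM in K9M, and 26.4, 14.0 and 32.4 RPKM in K36M. K36M replicates 1 and 3 were above all other libraries and K36M replicate 2 lay among the controls. The difference was 0.65 (SE 0.27) for K36M minus rtTA and 0.91 (SE 0.27) for K36M minus K9M on the log2 scale. Alas1 was not called in either, and was called in both without K36M replicate 2, at 0.99 and 1.25. The same 2 mice had the highest levels of Elane and Mpo, genes of the early granulocyte lineage chosen here after their values were seen. Elane stood at 634, 218 and 898 RPKM and Mpo at 1065, 466 and 1292 RPKM in K36M replicates 1 to 3, against 27.9 to 236 and 358 to 676 RPKM in the other 6 libraries. The other 8 granulocyte markers summed to 175 to 407 RPKM in K36M, 439 to 1050 in K9M and 701 to 6185 in rtTA. Over all 10 granulocyte markers the median difference was -2.59 for K36M minus rtTA and -1.53 for K9M minus rtTA, and limma called 1 of 10 lower in K36M and 0 of 10 in K9M (9 and 2 of 10 at an unadjusted p under 0.05). The part of these cells in the Alas1 level was not tested.

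Urod, the uroporphyrinogen decarboxylase of the middle of the pathway (ENSMUSG00000028684, chromosome 4, 116989965 to 116994413), was tightly measured. It stood at 24.9, 21.0 and 21.8 RPKM in rtTA, 28.4, 26.8 and 25.1 RPKM in K9M, and 29.9, 26.99 and 24.97 RPKM in K36M. Every mutant library was above every control, by narrow margins, with 24.9 RPKM as the highest control and 24.97 as the lowest mutant. The difference was 0.24 (SE 0.11) for K9M minus rtTA and 0.27 (SE 0.11) for K36M minus rtTA on the log2 scale, neither called.

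Fech encodes ferrochelatase, which inserts iron in the last step (ENSMUSG00000024588, chromosome 18, 64452914 to 64490251). It stood at 14.0, 10.6 and 15.2 RPKM in rtTA, 12.2, 13.4 and 12.2 RPKM in K9M, and 13.5, 11.7 and 12.0 RPKM in K36M. Groups overlapped throughout, with differences of -0.06 (SE 0.14) for K9M and -0.08 (SE 0.14) for K36M against rtTA. The 95% interval for K36M minus rtTA, -0.39 to 0.23, bounds how large a difference these mice could hide.

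Blvrb (ENSMUSG00000040466, chromosome 7, 27447978 to 27466144) stood at 13.2, 11.6 and 11.5 RPKM in rtTA, 12.7, 15.3 and 10.3 RPKM in K9M, and 14.4, 18.1 and 10.9 RPKM in K36M. Its groups overlapped in all 3 comparisons, with a K36M minus rtTA difference of 0.22 (SE 0.19).

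Of the 9 genes, 8 passed the level filter and could be called in limma at a Benjamini-Hochberg adjusted p under 0.05 over 12926 tested genes. In K9M against rtTA 0 of 8 were called, where 0.116% of all tested genes were (0.0928% higher and 0.0232% lower). By limma 3 of 8 had an unadjusted p under 0.05, where 7.11% of all did. In K36M against rtTA 1 of 8 was called, Hbb-bt, against 1.5% of all tested genes (0.572% higher and 0.928% lower), and 3 of 8 had an unadjusted p under 0.05, against 19.1%. In K36M against K9M 1 of 8 was called, again Hbb-bt, against 2.52% (1.02% higher and 1.5% lower), and 2 of 8 had an unadjusted p under 0.05, against 18.8%. Groups did not overlap for 2 of 8 in each comparison, against 12.5%, 22.3% and 27.9% of all tested genes. Differences were above 0 for 6, 6 and 4 of 8, against 51.3%, 52.3% and 51.1%. Since the genes were chosen with these contrasts known, nothing is read from these counts. The median difference of the 8 was 0.29 for K9M minus rtTA, 0.40 for K36M minus rtTA and 0.00 for K36M minus K9M, beside 0.01, 0.02 and 0.01 over all tested genes. The 3 comparisons share libraries and do not support each other.

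The call of Hbb-bt in K36M against rtTA ended without any 1 of rtTA replicates 1, 2 and 3 or K36M replicates 1 and 3, with differences then between 3.44 and 3.95, and also with no filter or with library weights. Against K9M it ended without any 1 of K36M replicates 1, 2 and 3, K9M replicate 2 or rtTA replicate 3, with differences between 2.90 and 3.41, and also with no filter or with only the 2 groups fitted.

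**Figure D3:**
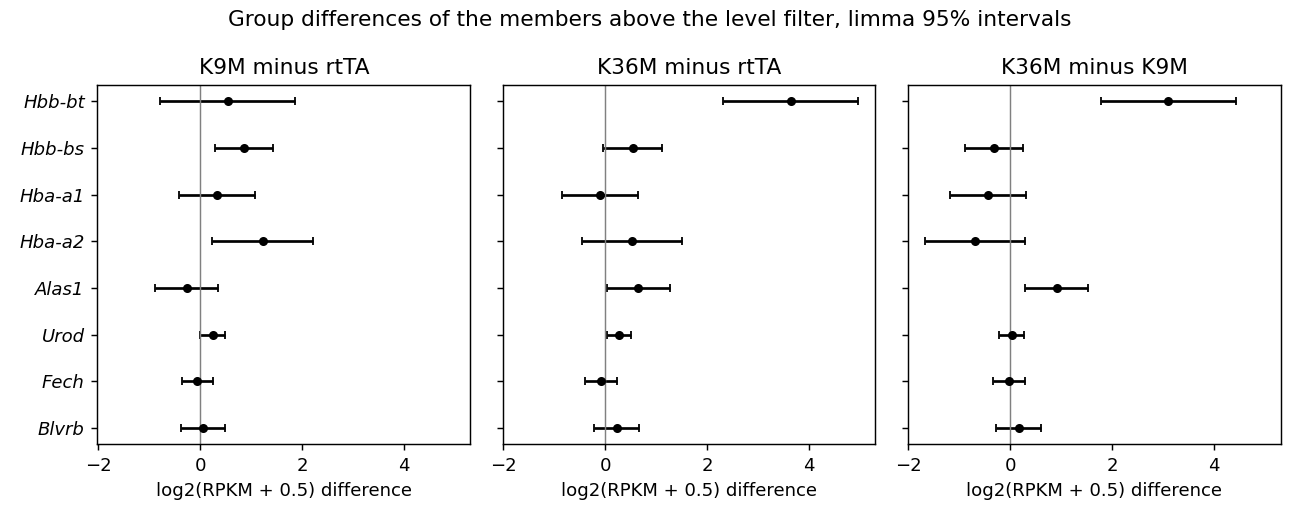
Differences in log2(RPKM + 0.5) with limma 95% intervals for the 8 genes above the level filter, 1 panel per comparison. Hbb-bt lies at 3.64 and 3.10 in both panels with K36M, and the other 7 genes lie between -0.70 and 1.22.

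Other heme synthesis enzymes were taken by function, and values are given for Alad, Uros, Cpox and Ppox. By limma 0 of these 4 were called in any of the 3 comparisons. An unadjusted p under 0.05 was met by 0 of 4 in K9M against rtTA, by Cpox in K36M against rtTA and by Alad in K36M against K9M. Cpox, coproporphyrinogen oxidase, stood at 10.6, 12.98 and 13.4 RPKM in rtTA, 14.5, 16.4 and 12.2 RPKM in K9M, and 15.4, 18.2 and 15.8 RPKM in K36M. Every K36M library was above every control, and K9M overlapped both groups. The Cpox difference for K36M minus rtTA was 0.41 (SE 0.14, limma adjusted p = 0.162). Alad, which condenses the product of the first step into a pyrrole, differed by -0.45 for K36M minus K9M (SE 0.19, limma adjusted p = 0.25). Uros differed by 0.08 (SE 0.17) for K9M minus rtTA and 0.19 (SE 0.17) for K36M minus rtTA. For Ppox these differences were -0.40 (SE 0.30) and -0.07 (SE 0.30).

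**Figure D4:**
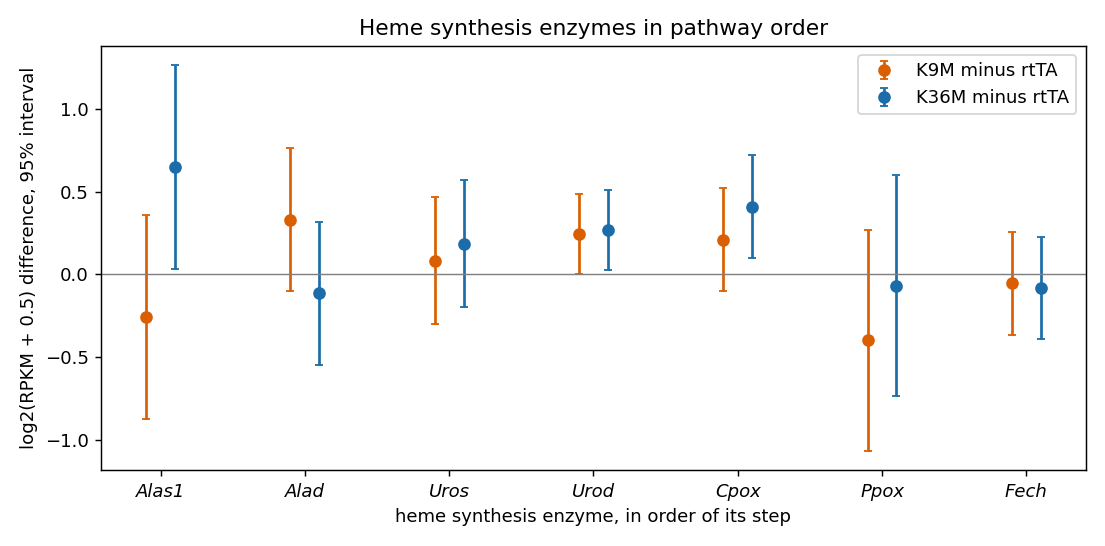
Differences from rtTA in log2(RPKM + 0.5), with limma 95% intervals, for 7 heme synthesis enzymes in the order of their steps, K9M and K36M side by side. Alas1 has the highest point for K36M, at 0.65, Cpox follows at 0.41, and Fech at the last step lies near 0 in both groups.

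Mitochondrial suppliers of glycine, iron and heme intermediates were tested for 14 of 14 listed genes. By limma 0 were called in any of the 3 comparisons, and 3 of 14 had an unadjusted p under 0.05 in K36M against rtTA, 0 in K9M against rtTA and 2 in K36M against K9M. Tmem14c, a mitochondrial protein that helps protoporphyrinogen reach the matrix, stood at 89.6 ± 8.96 RPKM in rtTA and 126 ± 23.02 in K36M (SD, n = 3; 0.48, SE 0.14, limma adjusted p = 0.128, and 0.047 with the replicate block). Shmt2, which makes glycine in mitochondria, stood at 70.8 ± 7.12 and 96.4 ± 13.3 RPKM (SD, n = 3; 0.44, limma adjusted p = 0.135). Median differences of the list were 0.11 for K9M and 0.15 for K36M against rtTA.

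In the list of heme breakdown, export and sensing 10 of 12 genes were tested and 0 were called by limma in any comparison, with 0, 3 and 3 at an unadjusted p under 0.05 in K9M against rtTA, K36M against rtTA and K36M against K9M. Abcg2, an efflux pump that can export porphyrins, stood at 9.13 ± 0.454 RPKM in rtTA mice, 10.02 ± 0.173 RPKM in K9M mice and 6.63 ± 1.35 RPKM in K36M mice (SD, n = 3). Its K36M minus rtTA difference was -0.45 (SE 0.14, limma adjusted p = 0.136). Its K36M minus K9M difference was -0.58 (SE 0.14, limma adjusted p = 0.0653). In the latter it was called with library weights, with the replicate block and without K36M replicate 2 (limma adjusted p = 0.0434, 0.0486 and 0.0273). Eif2ak1, the heme-regulated kinase that restrains globin translation when heme is short, stood at 11.3 ± 0.696 in rtTA and 13.9 ± 1.71 RPKM in K36M (0.29, limma adjusted p = 0.229).

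Among 12 genes of iron uptake and storage, all tested, Aco1 was called lower in K36M against K9M. Aco1 encodes the cytosolic aconitase that doubles as an iron regulatory protein. It stood at 8.80, 9.18 and 9.12 RPKM in rtTA, 11.1, 11.8 and 11.2 RPKM in K9M, and 8.20, 7.85 and 8.59 RPKM in K36M, so all K9M libraries lay above all others. The difference was -0.45 (SE 0.09, limma adjusted p = 0.0383) for K36M minus K9M and 0.32 (SE 0.09, limma adjusted p = 0.447) for K9M minus rtTA. The call ended when any 1 K9M or K36M library, or rtTA replicate 3, was left out. It also ended with no filter and when only the 2 groups compared were fitted. The other 11 genes were not called, and by limma 0 of 12 were called against rtTA in either mutant, with 1 of 12 and 0 of 12 at an unadjusted p under 0.05 in K9M and K36M. In K36M against K9M 4 of 12 had one.

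The embryonic and other globins that had values were close to silent. Of 16 listed globin, pseudogene and chaperone entries 12 were found in the table, 5 were listed at 0 in all libraries, and the 12 together summed to at most 0.513 RPKM in any library. None of the 12 reached the filter. Hbb-b1, Hbb-b2, Hba-ps3 and the chaperone gene Ahsp were not found, so their levels are not known. The high Hbb-bt level therefore came without a measurable level of the embryonic beta-like genes Hbb-y and Hbb-bh1.

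Transcription regulators of the erythroid lineage were not called by limma in any comparison, 0 of 16 tested, with 0, 4 and 2 at an unadjusted p under 0.05 in K9M against rtTA, K36M against rtTA and K36M against K9M. Lmo2, a bridging protein of the erythroid factor complex, stood at 209 ± 11.1 RPKM in rtTA and 161 ± 9.97 in K36M (SD, n = 3; -0.38, SE 0.11, limma adjusted p = 0.119). Gata2, a stem and progenitor factor, stood at 49.9 ± 11.8 and 34.8 ± 6.18 RPKM (SD, n = 3; -0.50, limma adjusted p = 0.199). Klf1, the activator that binds the beta globin CACCC box, was named after its values were seen, at 7.97 ± 1.87 RPKM in rtTA mice, 7.24 ± 2.94 RPKM in K9M mice and 12.9 ± 2.18 RPKM in K36M mice (SD, n = 3). It was not called, with a K36M minus rtTA difference of 0.67 (limma adjusted p = 0.22). The Klf1 difference for K36M minus K9M was 0.85 (SE 0.27, limma adjusted p = 0.134). With the replicate block Klf1 was called in the latter (limma adjusted p = 0.0486).

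Markers of later red cells were checked as other cells the sort could hold. All 18 were in the table, 12 were tested and 0 were called by limma in any comparison, with 1, 2 and 2 at an unadjusted p under 0.05. Differences were above 0 for 8, 9 and 8 of 12 in K9M against rtTA, K36M against rtTA and K36M against K9M. Their medians were 0.07, 0.37 and 0.31, beside 0.01, 0.02 and 0.01 over all tested genes. The list summed to 404 to 440 RPKM in rtTA, 431 to 589 in K9M and 309 to 508 in K36M, mostly from Car1, Car2 and Aqp1. The other 15 summed to 16.7 to 21.5 RPKM in rtTA, 15.96 to 28.4 in K9M and 21.5 to 36.4 in K36M. Slc4a1, the anion exchanger of mature red cells, stood at 0.235, 0.158 and 0.871 RPKM in rtTA, 0.294, 0.305 and 0.271 in K9M, and 0.275, 0.222 and 0.0693 in K36M. It was highest in rtTA replicate 3, the control with the most alpha chain RPKM, and lowest in K36M replicate 3. Slc4a1 was below the level filter and outside the naming rule given below. Car1, a carbonic anhydrase gene named after its values were seen, stood at 44.2, 58.7 and 65.3 RPKM in rtTA, 91.8, 132.4 and 67.1 RPKM in K9M, and 36.4, 57.6 and 24.2 RPKM in K36M. Every K9M library was above all others. The Car1 difference was -1.32 for K36M minus K9M (SE 0.33, limma adjusted p = 0.0711) and -0.57 for K36M minus rtTA (SE 0.33, limma adjusted p = 0.383). Its sign was opposite to that of Hbb-bt, while 8 and 9 of the 12 tested markers were above 0 in these comparisons, as Hbb-bt was. Against K9M Car1 was called with the replicate block and without K36M replicate 2 (limma adjusted p = 0.0402 and 0.0302). Rhd, a blood group protein gene, stood at 3.11 ± 0.211 RPKM in rtTA and 5.98 ± 2.44 in K36M (SD, n = 3; 0.77, limma adjusted p = 0.206), and Tspo2, a late erythroid membrane protein gene, at 0.626 ± 0.112 and 1.55 ± 0.669 RPKM (0.82, limma adjusted p = 0.218). The part of red cell precursors in the globin levels was not tested.

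The beta globin genes lie in a cluster on chromosome 7, and neighbouring genes were examined after the values were seen. Within 1 Mb of the Hbb-bt start 12 other genes passed the filter, and 0 of 12 were called by limma in any comparison. By limma Trim30b, Trim12a, Trim34a and Trim30d were lower in K9M against rtTA at an unadjusted p under 0.05. In K36M against rtTA Trim30b, Trim30a and Trim30d were lower and E030002O03Rik higher at that limit. Over all tested genes 7.11% and 19.1% met it in these 2 comparisons. Several genes of the Trim family, which encode ubiquitin ligases with roles in antiviral defence, varied between mice of the K9M group. Trim12a, 487 kb away, stood at 5.27, 5.96 and 5.97 RPKM in rtTA, 4.18, 1.72 and 0.0943 RPKM in K9M, and 3.65, 4.27 and 4.43 RPKM in K36M. Trim34a, 432 kb away, stood at 8.43, 8.85 and 8.73 RPKM in rtTA, 7.57, 3.75 and 1.53 RPKM in K9M, and 5.46, 8.06 and 7.69 RPKM in K36M. K9M replicate 3 had the lowest level of Hbb-bt, Trim12a and Trim34a of all libraries, and K9M replicate 1 the highest of the K9M mice for all 3. In rtTA Trim12a and Trim34a were at their highest while Hbb-bt was low. In K36M, where Hbb-bt was highest, Trim12a and Trim34a lay below every control. The relation of these neighbours to Hbb-bt was not tested. The labels give 1 mixed background for all mice and no genotype at this locus, and which strain's beta globin copies each mouse carried was not tested.

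**Figure D5:**
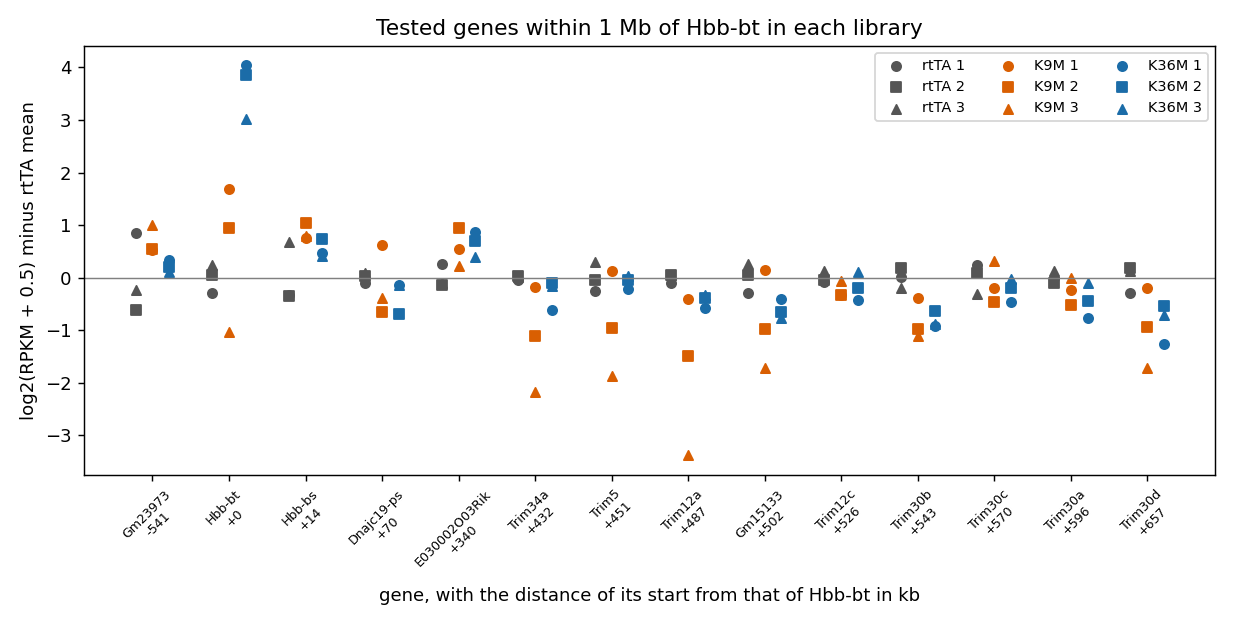
For Hbb-bt, Hbb-bs and the 12 other tested genes within 1 Mb, log2(RPKM + 0.5) in each library minus the rtTA mean, ordered along the chromosome with distances in kb. The 3 K36M libraries stand far above the other libraries at Hbb-bt and not at its neighbours, and K9M replicate 3 stands low at Hbb-bt, Trim34a, Trim5 and Trim12a.

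By likeness over the 9 libraries, the named protein-coding genes closest to Hbb-bt among 10610 ranked were Cela1 (Pearson r = 0.979), Pgam2 (0.956), Nmral1 (0.949), Rae1 (0.947) and Mrpl1 (0.934). These are descriptions over libraries that share their group structure. Cela1, an elastase gene on chromosome 15, stood at 5.88, 5.04 and 5.55 RPKM in rtTA, 6.99, 6.72 and 3.91 RPKM in K9M, and 14.7, 14.2 and 13.1 RPKM in K36M. Like Hbb-bt it was lowest in K9M replicate 3 and highest in K36M replicate 1. The genes closest to Urod were Cenpm (0.979), Atp5d (0.966), Mrpl54 (0.963), Vbp1 (0.960) and Cox7b (0.958), none on the same chromosome as Urod.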

How the data were processed

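RNA was sequenced from sorted LSK cells of 9 mice, 1 library each. The authors deposited RPKM values, reads scaled to transcript length and library size; CASAVA 1.7, STAR and mm10 are named per the submitters' processing notes, and no source used here gives the STAR version or the counting rule. The labels list the molecule as polyA RNA but describe a TruSeq total RNA kit. Depth was read from RPKM steps with GENCODE M21 exon lengths; 50.4% to 52.1% of values worth up to 20 reads were whole within 0.02, so read numbers are approximate and no count test was run. Of 37882 genes, 37607 matched M21. 4 listed genes stood under older names and were matched by identifier.

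Genes with at least 1 RPKM in at least 3 libraries were fitted as log2(RPKM + 0.5) with limma 3.58.1 in R 4.3.3, 3 group means over all 9 libraries, eBayes with trend (6 residual and 3.14 prior degrees of freedom). Differences on this scale understate changes of low genes. The fit was tested on simulated data. P-values come from moderated t-tests that set a group difference against the spread between mice, estimated over all 3 groups. The main fit holds no pairing of libraries. The members and lists were chosen with earlier results of these data known. Named genes were the 9 members, every called gene of each of 7 pathway lists or otherwise the 2 with the smallest p in K36M against rtTA, and the 5 genes most correlated with Hbb-bt and with Urod. Some listed genes, 1 that this rule names among them, are not reported here. For K36M and rtTA, deviations from group means correlated between same-numbered libraries at 0.414, 0.369 and 0.377, above the limit of 0.1 used for pairing; this comes from the data, not the labels, and a blocked value is given where it changes a call. Alternatives changed the pseudocount, filter, scaling or variance trend, or used library weights, a replicate block, fits to only 2 groups, summed copies and each library left out.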

Additional observations from a re-analysis of the deposited data

How the results depend on the processing

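The 194 genes called in K36M against rtTA became 76 with no filter, 25 with only the 2 groups compared, 301 with the replicate block, and 10 to 402 without single libraries. The 15 called in K9M against rtTA became 4 with no filter, 8 with quantile normalization, 8 with median centring, 62 with library weights, and 6 to 36 without single libraries. The 326 called in K36M against K9M became 118 with no filter, 589 with library weights, 595 with the replicate block, and 15 to 509 without single libraries.

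Among the 9 members, the 1 called in K36M against rtTA became 0 with no filter and with library weights, and 0 to 2 without single libraries. The 1 called in K36M against K9M became 0 with no filter and with only the 2 groups compared, and 0 to 1 without single libraries. The 0 in K9M against rtTA became 0 to 1. Hbb-bt on its own was positive in all 19 alternatives that keep the copies apart, from 3.44 to 3.95 in K36M against rtTA and from 2.32 to 3.68 in K36M against K9M, and was called in 12 of 19 in each.

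In the other lists, the 0 genes called in K36M against rtTA became 2 with the replicate block, Tmem14c among them. The 1 called in K36M against K9M became 0 with no filter and with only the 2 groups compared, 2 with library weights, 4 with the replicate block, and 0 to 2 without single libraries. Numbers did not pair K9M with the other groups, where not every library correlated best with its own number.

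Small differences changed sign. Hba-a1 became -0.0447 in K9M against rtTA with library weights, and Urod became -0.0156 in K36M against K9M with quantile normalization. The sum of Hba-a1 and Hba-a2, another feature than Hba-a1 alone, stood at 0.28 in K36M against rtTA. Without single libraries, K9M against rtTA ran from -0.20 to 0.0485 for Fech, -0.0419 to 1.32 for Hbb-bt and -0.0758 to 0.20 for Blvrb. K36M against rtTA ran from -0.37 to 0.32 for Hba-a1 and -0.23 to 0.0217 for Fech. K36M against K9M ran from -0.0415 to 0.0871 for Urod, -0.0864 to 0.0167 for Fech and -0.00926 to 0.35 for Blvrb. Apart from fewer samples or more genes tested where an alternative brings them, the cause was not tested. The level of each globin copy is limited by reads that fit both copies, and Alas2 by depth.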
